A study of Saccharomyces cerevisiae x Saccharomyces paradoxus and Saccharomyces cerevisiae and Saccharomyces paradoxus with 40 samples.

Results

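Messenger RNA of sporulating cultures of the budding yeast S. cerevisiae was compared between the stages M1M2 and M1. As the submitters name the stages, M1M2 is the time at which late meiosis I overlaps with early meiosis II, and M1 is the start of meiosis I. How far the cells of each culture had reached these stages was not tested. The comparison takes 6 of the 40 libraries of the series, 3 of M1M2 and 3 of M1, and all rows of the deposited count table that name a gene. These are 3217 of 3463 rows, and 3094 of the genes had enough counts to be tested.

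The cultures were grown overnight in the rich medium YPD and moved to potassium acetate medium, in which diploid yeast enters meiosis and forms spores. The series also holds S. cerevisiae libraries of T0 (the move to acetate medium) and M2 (late meiosis II), 3 per stage, and the same 4 stages of S. paradoxus and of the hybrid of both species, whose 4 libraries per stage come from both reciprocal crosses. The labels give species and stage, call the replicates biological and name no strain, allele or mating type for the S. cerevisiae cultures. The p-values rest on a spread between libraries that was pooled over all 12 groups of the series and may hold technical spread too. Poly-A RNA was extracted from whole cultures, so fewer cells of a kind and less RNA per cell cannot be told apart.

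In meiotic prophase the chromosomes are organised on a protein axis, broken by a programmed nuclease, repaired by recombination with the homologue and joined by the synaptonemal complex. Early genes of this kind can carry the DNA element URS1, which the repressor Ume6 binds, and the kinase Ime2 takes part in meiotic entry. The transcription factor Ndt80 then binds the middle sporulation element (MSE) and switches on genes of the divisions, of the prospore membrane that encloses each nucleus, and of the spore wall.

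Promoter windows of 7 genes are printed because the genes carry the results below and the windows hold the core of one of these elements. Each window is the 250 bases before the start codon in the RefSeq annotation of the S288C reference strain (build R64), on the plus strand of the chromosome. The build used for the deposited counts is not given in the sources used here, and genes were matched by name. Capitals mark the URS1 core GGCGGC, or its reverse complement, in the first 5 windows and the MSE core CACAAA, or its reverse complement, in the last ones.
HOP1: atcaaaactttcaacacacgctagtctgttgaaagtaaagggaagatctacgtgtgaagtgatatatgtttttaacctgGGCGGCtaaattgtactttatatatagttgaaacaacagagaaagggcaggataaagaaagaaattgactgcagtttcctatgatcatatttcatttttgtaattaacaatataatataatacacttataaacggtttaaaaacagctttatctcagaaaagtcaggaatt
ZIP1: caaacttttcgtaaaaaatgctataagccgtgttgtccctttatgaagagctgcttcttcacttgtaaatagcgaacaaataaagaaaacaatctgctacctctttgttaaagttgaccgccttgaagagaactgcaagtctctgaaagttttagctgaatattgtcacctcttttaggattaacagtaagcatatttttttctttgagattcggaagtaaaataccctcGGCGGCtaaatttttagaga
DMC1: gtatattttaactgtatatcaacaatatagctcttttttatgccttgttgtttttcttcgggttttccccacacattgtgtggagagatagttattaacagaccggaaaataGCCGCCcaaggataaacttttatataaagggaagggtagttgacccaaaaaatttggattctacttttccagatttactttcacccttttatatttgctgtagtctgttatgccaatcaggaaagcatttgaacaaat
HOP2: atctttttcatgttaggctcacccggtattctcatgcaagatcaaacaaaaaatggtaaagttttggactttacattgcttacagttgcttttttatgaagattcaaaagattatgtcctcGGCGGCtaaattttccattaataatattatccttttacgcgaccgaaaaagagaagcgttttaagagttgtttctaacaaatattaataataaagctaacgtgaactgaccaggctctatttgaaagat
CAR1: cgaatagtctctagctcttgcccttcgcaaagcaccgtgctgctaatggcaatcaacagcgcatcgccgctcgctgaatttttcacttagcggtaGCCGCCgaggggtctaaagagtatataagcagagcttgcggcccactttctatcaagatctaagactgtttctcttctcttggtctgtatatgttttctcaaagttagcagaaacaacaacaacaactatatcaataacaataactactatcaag
NDT80: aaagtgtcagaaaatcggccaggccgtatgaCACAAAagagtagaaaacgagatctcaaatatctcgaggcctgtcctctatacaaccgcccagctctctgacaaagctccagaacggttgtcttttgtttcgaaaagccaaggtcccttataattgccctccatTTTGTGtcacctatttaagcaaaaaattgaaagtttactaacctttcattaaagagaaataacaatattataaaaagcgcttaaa
SPO21: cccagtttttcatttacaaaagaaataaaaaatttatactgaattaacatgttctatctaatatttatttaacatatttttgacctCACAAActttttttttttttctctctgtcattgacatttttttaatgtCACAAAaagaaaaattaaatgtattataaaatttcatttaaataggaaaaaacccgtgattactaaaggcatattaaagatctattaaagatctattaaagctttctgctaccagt
These windows are chrIX:226352-226601, chrIV:1032186-1032435, chrV:548171-548420, chrVII:435375-435624 and chrXVI:339694-339943 for the URS1 genes, and chrVIII:356311-356560 and chrXV:145084-145333 for the MSE genes. The URS1 core starts 171 bases before the start codon of HOP1, 20 before that of ZIP1, 138 before that of DMC1, 129 before that of HOP2 and 155 before that of CAR1. The MSE core lies 219 and 85 bases before the start codon of NDT80, and 164 and 116 bases before that of SPO21.

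Searched on both strands, the URS1 core was in 12 of the 58 promoters of genes higher in M1M2 that the annotation holds (20.7%), in 0 of 10 promoters of the lower genes, and in 123 of 2748 promoters of all tested genes (4.48%). Among the 27 promoters of rises that were also past the threshold without both replicates 2, 10 held it (37.0%). It was in 3 of the 9 promoters of tested axis and synaptonemal complex genes (33.3%) and in 6 of the 19 of recombination genes (31.6%). The windows of RED1, ECM11, SMC1, IME2 and AMA1, which rose too, held no URS1 core. The MSE core was in 12 of the 58 promoters (20.7%), against 453 of all 2748 (16.5%). It was in 10 of the 13 promoters of tested prospore membrane genes (76.9%) and in 15 of the 22 of spore wall genes (68.2%), lists in which 2 genes each were called. The cores can share no more than an end base. A match describes letters in a window and is no evidence of binding.

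Depth differed widely between the libraries. Counts in genes were 2527046, 23453 and 1322563 in M1M2 replicates 1, 2 and 3, and 4510105, 159496 and 1506126 in M1 replicates 1, 2 and 3. Values below are normalized counts per 1000000 (CPM), taken over the TMM-scaled library size, and are given in the order of replicates 1, 2 and 3. A single count is worth 80.3 CPM in M1M2 replicate 2 and 10.2 CPM in M1 replicate 2, against 0.207 to 0.673 CPM in the other 4 libraries. Of the tested genes 40.5% had no count in M1M2 replicate 2 and 23.2% had none in M1 replicate 2. Over tested genes the Spearman correlation was 0.806 between M1M2 replicates 1 and 3, but 0.551 and 0.495 between each of these and M1M2 replicate 2. For M1 it was 0.824 between replicates 1 and 3, and 0.629 and 0.617 with replicate 2. The correlations are across genes, which are not independent replicates, and depth differs between the libraries.

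In M1M2, 62 genes were higher than in M1 (2% of those tested) and 10 were lower (0.323%), 72 in all (2.33%), by edgeR's quasi-likelihood test at a Benjamini-Hochberg adjusted p under 0.05. Changes are log2 values ± SE, M1M2 minus M1, with n = 3 per stage, and the median of all genes was 0.01. At an unadjusted p under 0.05 there were 430 genes. The 3 M1M2 libraries did not overlap with the 3 M1 libraries for 54 of the 72 genes, 44 higher and 10 lower. Over all tested genes they did not overlap for 417 (13.5%), with 196 higher (6.33%) and 221 lower (7.14%).

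Without both replicates 2, 42 of 3108 genes were past the threshold (1.35%), 39 higher (1.25%) and 3 lower (0.0965%). Of the 72 genes 31 were among them, 28 higher and 3 lower, and 41 were not. The 34 higher genes that were lost drew a median of 89.8% of their summed M1M2 CPM from replicate 2, where that share was 23.6% for the 31 kept genes and 17.6% for all tested genes. For 5 of the lost genes the change had the opposite sign without both replicates 2. There were 12 genes past the threshold whichever one of the 6 libraries was left out, namely HOP1, RED1, ECM11, SMC1, DMC1, HED1, FKS3, CAR1, YKL107W, PHM7, ARO9 and ULP2. Of these PHM7, ARO9 and ULP2 lie outside the rule for named genes and were picked with their values known.

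**Figure D1:**
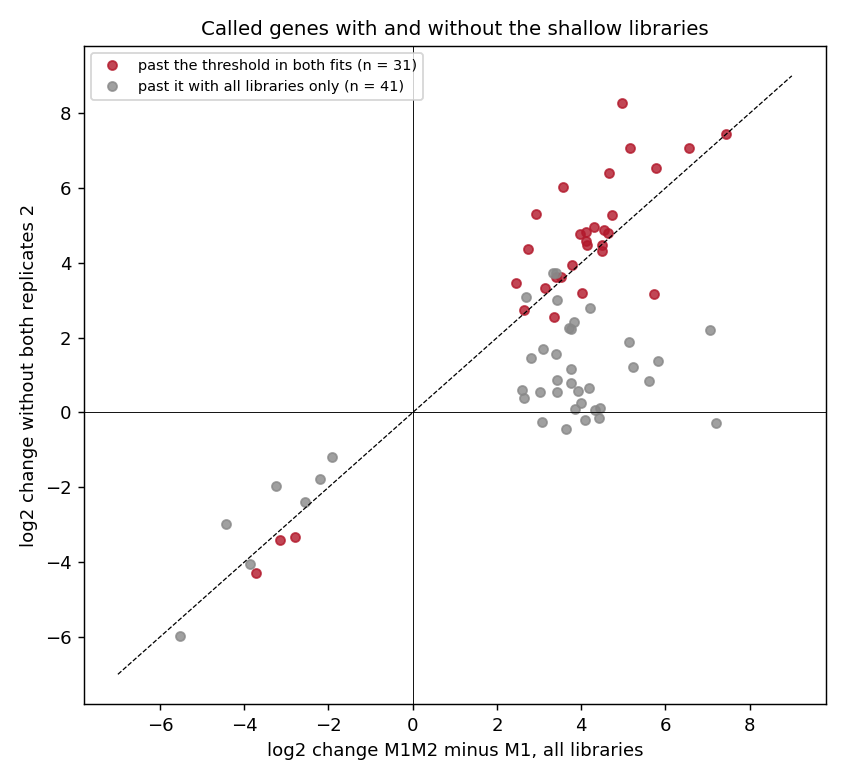
The log2 change (M1M2 minus M1) of the 72 called genes with all 6 libraries (horizontal axis) and without both shallow libraries (vertical axis). The 31 genes in red were past the threshold in both fits, and many of the 41 grey ones lie near 0 on the vertical axis.

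Counts of called genes in the lists below stand against 2% higher and 0.323% lower among all tested genes. A count of 1 in a list describes that gene and not the list. Of 9 tested genes of the chromosome axis and the synaptonemal complex 5 rose and 0 fell, with the other members of the list of 19 not analysed here. All 9 changes were positive, and the median change was 3.57. Without both replicates 2 the count was again 5 and the median 3.20. HOP1 (YIL072W, chrIX:226602-228419), an axis protein that binds near break sites, had 1797, 321 and 4012 CPM in M1M2 libraries, against 22.4, 143 and 163 CPM in M1 libraries. All M1M2 values lay above all M1 values, and the lowest of the M1M2 values came from the shallow library with 4 counts. The change was 4.30 ± 0.83 (adjusted p = 0.00114), and 4.95 without both replicates 2. RED1 (YLR263W, chrXII:670340-672823), its axis partner, had 1024, 402 and 2916 CPM in M1M2, against 112, 132 and 23.2 CPM in M1. The groups did not overlap, and the change was 4.12 ± 0.81 (adjusted p = 0.00118; 4.81 without both replicates 2).

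ECM11 (YDR446W, chrIV:1353725-1354633), of the central element of the synaptonemal complex, had 713, 8195 and 1252 CPM in M1M2, against 7.88, 132 and 6.28 CPM in M1. Replicate 2 was the highest library in each stage, and the groups did not overlap. The change was 6.56 ± 1.21 (adjusted p = 0.000672), and 7.06 without both replicates 2. ZIP1 (YDR285W, chrIV:1032436-1035063), which spans the axes of the paired homologues, had 824, 321 and 2567 CPM in M1M2, against 27.4, 316 and 23.2 CPM in M1. Its shallow M1M2 library, with 4 counts, lay just above the shallow M1 library, with 31, while the deep libraries were far apart. The change was 3.57 ± 0.86 (adjusted p = 0.0115) and 6.02 (adjusted p = 0.000285) without both replicates 2, but the adjusted p was 0.0865 without M1M2 replicate 3, 0.0952 without M1 replicate 1 and 0.121 without M1 replicate 3. SMC1 (YFL008W, chrVI:119429-123106), a cohesin subunit that mitotic cells use too, had 2053, 5865 and 3383 CPM in M1M2, against 284, 102 and 296 CPM in M1. All libraries of M1M2 were higher, and the change was 4.01 ± 0.75 (adjusted p = 0.000701; 3.20 without both replicates 2). The members ZIP2, GMC2, PCH2 and LRS4 did not pass, with changes of 1.55, 2.41, 2.51 and 0.49.

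Of 19 tested genes of meiotic recombination 5 rose and 0 fell, 17 changes were positive, and the median was 2.64. DMC1 (YER179W, chrV:548421-549517), the recombinase made only in meiosis, had 5001, 36317 and 5399 CPM in M1M2, against 48.7, 1599 and 463 CPM in M1. All M1M2 libraries were above all M1 libraries, and replicate 2 was the highest of each stage. The change was 4.48 ± 0.83 (adjusted p = 0.000672), and 4.33 without both replicates 2. HED1 (YDR014W-A, chrIV:477797-478285), a meiotic regulator of strand exchange, had 949, 161 and 1032 CPM in M1M2, against 3.32, 40.7 and 48.4 CPM in M1. The change was 4.72 ± 0.95 (adjusted p = 0.00154; 5.27 without both replicates 2). The groups did not overlap, but the shallow M1M2 value stands on 2 counts, under the 3 counts (241 CPM) taken as the floor in that library.

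HOP2 (YGL033W, chrVII:435625-436401), which keeps strand exchange to homologues, had 783, 80.3 and 840.1 CPM in M1M2, against 2.07, 81.5 and 3.14 CPM in M1. The shallow libraries differed by less than 1 count is worth, with 1 count in M1M2 and 8 in M1, and the deep ones were far apart. The change was 4.96 ± 1.39 (adjusted p = 0.0382) with all libraries and 8.27 (adjusted p = 0.00214) without both replicates 2, and the adjusted p was 0.0556 without M1M2 replicate 1, 0.0559 without M1M2 replicate 3, 0.168 without M1 replicate 1 and 0.221 without M1 replicate 3. MPS3 (YJL019W, chrX:402897-404945), a nuclear envelope protein that tethers telomeres, had 171, 10284 and 457 CPM in M1M2, against 107, 0 and 157 CPM in M1. Its call rests on the shallow library, in which 128 counts gave the highest value. The change was 5.23 ± 1.28 (adjusted p = 0.0122) and 1.22 (adjusted p = 0.979) without both replicates 2, and the adjusted p was 0.682 without M1M2 replicate 2, 0.0646 without M1 replicate 1, 0.0625 without M1 replicate 2 and 0.0571 without M1 replicate 3.

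**Figure D2:**
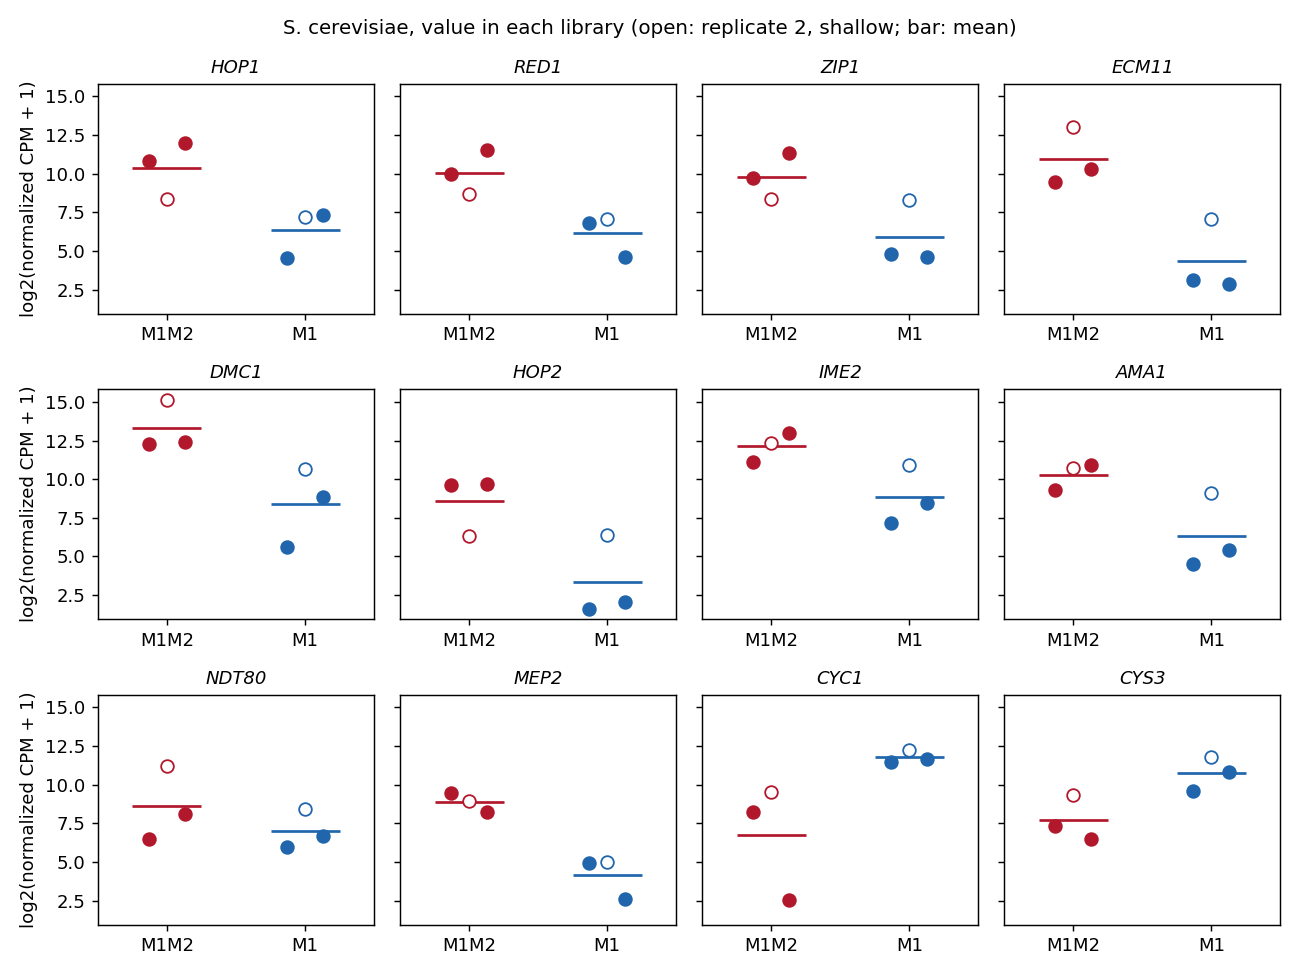
Normalized CPM on a log2 scale, with 1 added, of 12 genes in each M1M2 library (left of each panel) and each M1 library (right). Open points are the shallow replicates 2 and bars are means of the 3 points. For HOP1, RED1, ZIP1, ECM11 and DMC1 all M1M2 points lie above all M1 points, for CYC1 and CYS3 all lie below them, and for HOP2 and NDT80 the groups overlap.

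Among 9 tested regulators of meiotic entry 1 rose and 0 fell, and the median change was 0.98. IME2 (YJL106W, chrX:221390-223327) had 2228, 5142 and 8145 CPM in M1M2, against 139.7, 1894 and 352 CPM in M1. The M1 library closest to M1M2 was the shallow one. The change was 2.73 ± 0.70 (adjusted p = 0.0172), and 4.37 (adjusted p = 0.000422) without both replicates 2, with an adjusted p of 0.0678 without M1M2 replicate 3, 0.119 without M1 replicate 1 and 0.145 without M1 replicate 3. RIM4 (YHL024W, chrVIII:56649-58790), an RNA-binding protein that delays translation of middle genes, had 6175, 7713 and 14649 CPM in M1M2, against 1486, 4125 and 1650.3 CPM in M1, with no overlap. Its change of 1.98 ± 0.60 did not pass (adjusted p = 0.0606), while it was 2.70 and past the threshold without both replicates 2 (adjusted p = 0.0316). Its adjusted p was also 0.0339 without M1M2 replicate 1 and 0.0209 without M1 replicate 2.

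NDT80 (YHR124W, chrVIII:356561-358444) had 89.7, 2330.1 and 270.4 CPM in M1M2, against 61.6, 336 and 99.2 CPM in M1. Replicate 2 was the highest library of each stage, and the deep M1M2 libraries overlapped with the M1 libraries. The change of 2.3 ± 0.72 did not pass (adjusted p = 0.0732). It was 1.13 (adjusted p = 0.624) without both replicates 2, and the adjusted p was 0.00809 without M1M2 replicate 1, 0.025 without M1M2 replicate 3 and 0.0145 without M1 replicate 2. IME4 (YGL192W), an RNA methyltransferase of meiotic entry, had 316, 0 and 346 CPM in M1M2, against 64.5, 40.7 and 169.6 CPM in M1, and a change of 1.43 ± 0.79 (adjusted p = 0.427). IME4 overlaps the antisense gene RME2, and whether the counting used strand is not given in the sources used here, so reads of both genes cannot be told apart.

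Over the 4 stages of S. cerevisiae, 274 genes were called in M1 against T0 (8.86%; 4.07% higher and 4.78% lower) and 282 in M2 against M1M2 (9.11%; 4.52% higher and 4.59% lower). HOP1 averaged 7.89 ± 3.90 CPM at T0, 109 ± 75.9 at M1, 2044 ± 1858 at M1M2 and 1083 ± 868 at M2 (SD, n = 3 each). Its step from M1M2 to M2, M2 minus M1M2, was -0.96 ± 0.73 and did not pass (adjusted p = 0.548). DMC1 fell at that later step, by 2.57 on the log2 scale in M2 relative to M1M2 (adjusted p = 0.018), but the change was -1.01 (adjusted p = 0.539) without M1M2 replicate 2, an alternative chosen after seeing the data. NDT80 averaged 38.5 ± 9.71, 166 ± 149, 897 ± 1245 and 3776 ± 952 CPM at T0, M1, M1M2 and M2 (SD, n = 3 each). It rose at the later step, by 2.29 ± 0.70 (adjusted p = 0.0249), and by 4.37 (adjusted p = 3.24e-05) without M1M2 replicate 2. GAS4 (YOL132W, chrXV:71300-72715), a glucanosyltransferase of the spore wall chosen after its values were seen, rose by 4.82 ± 0.83 at that step (adjusted p = 0.0002), where its change at M1M2 against M1 was 1.19 ± 0.77 (adjusted p = 0.524). The steps M1M2 minus M1 and M2 minus M1M2 share the M1M2 libraries, the shallow one included.

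**Figure D3:**
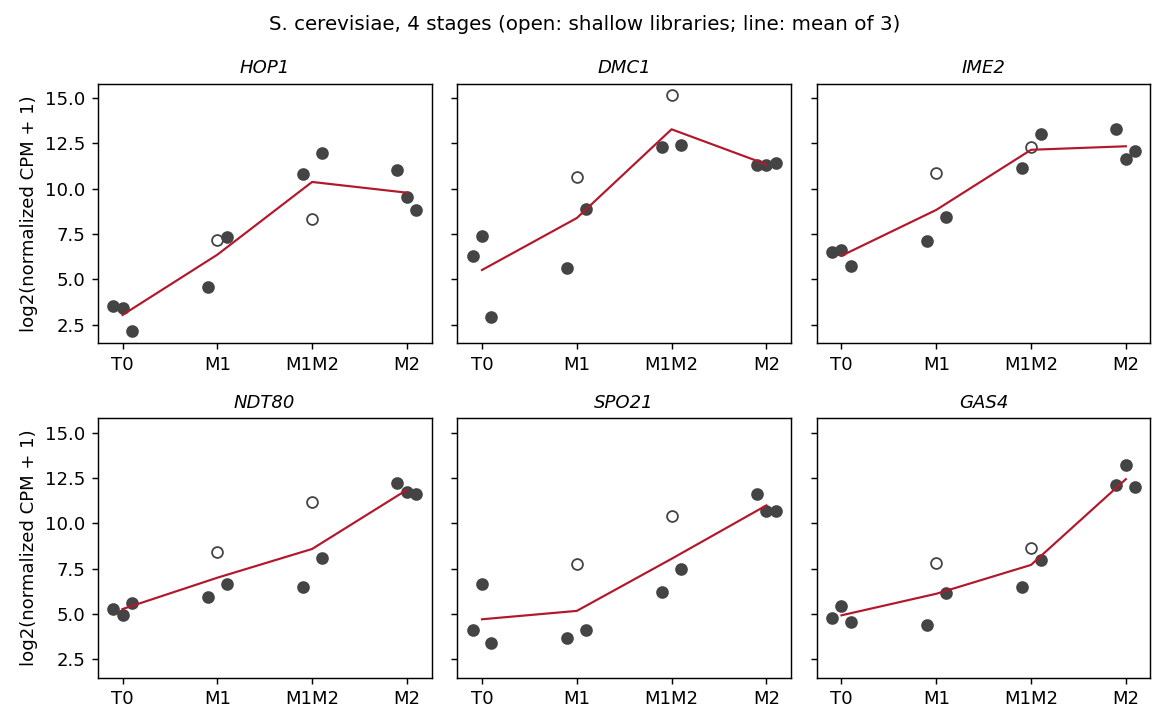
Normalized CPM on a log2 scale, with 1 added, of 6 genes in each S. cerevisiae library at T0, M1, M1M2 and M2. Open points are the shallow libraries and the line joins the means of 3 points. The means of HOP1 and DMC1 are highest at M1M2, for DMC1 with the shallow library far above the others, and those of IME2, NDT80, SPO21 and GAS4 are highest at M2.

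Of 13 tested prospore membrane genes 2 rose, 12 changes were positive, and the median was 1.24. The 2 genes were SPO1 and AMA1, and AMA1 is also counted below in the list of the anaphase promoting complex. SPO1 (YNL012W, chrXIV:609686-611665), a phospholipase-like protein needed at the spindle pole, had 361, 241 and 977 CPM in M1M2, against 22, 71.3 and 25.7 CPM in M1. The groups did not overlap, with 3 counts in the shallow M1M2 library, and the change was 3.97 ± 0.95 (adjusted p = 0.0103) and 4.77 (adjusted p = 0.0123) without both replicates 2, with an adjusted p of 0.0707 without M1M2 replicate 3, 0.0811 without M1 replicate 1 and 0.0934 without M1 replicate 3. SPO21 (YOL091W), of the meiotic spindle pole plaque, had 74.5, 1366 and 179 CPM in M1M2, against 11.6, 214 and 16.3 CPM in M1, with overlap. Its change was 2.71 ± 0.93 (adjusted p = 0.112), and 3.15 (adjusted p = 0.0275) without both replicates 2, with an adjusted p of 0.0276 without M1M2 replicate 1 and 0.00284 without M1 replicate 2.

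Of 22 tested spore wall genes 2 rose, 18 changes were positive, and the median was 0.64, or 1.54 without both replicates 2. FKS3 (YMR306W, chrXIII:881159-886516), a relative of glucan synthase, had 896, 161 and 2247 CPM in M1M2, against 88.3, 40.7 and 15.1 CPM in M1. The change was 4.55 ± 0.85 (adjusted p = 0.000672; 4.88 without both replicates 2). The groups did not overlap, but the shallow M1M2 value stands on 2 counts, under that floor. SHC1 (YER096W), an activator of chitin synthesis in spores, had 419, 0 and 718 CPM in M1M2, against 50.4, 10.2 and 22 CPM in M1. It had no count in the shallow M1M2 library, and the change was 3.79 ± 0.93 (adjusted p = 0.0121; 0.0329 without both replicates 2), with an adjusted p of 0.0692 without M1M2 replicate 3, 0.0502 without M1 replicate 2 and 0.0986 without M1 replicate 3. CDA1 (YLR307W), a chitin deacetylase, changed by 0.45 ± 0.80 and DIT1 (YDR403W), of dityrosine synthesis, by 0.28 ± 1.47 (adjusted p = 0.902 for CDA1 and 0.98 for DIT1).

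AMA1 (YGR225W, chrVII:945145-947019), the meiotic activator of the anaphase promoting complex, was the 1 gene of 9 in that list to rise. It had 616, 1687 and 1917 CPM in M1M2, against 21.8, 539.8 and 41.4 CPM in M1. The change was 2.92 ± 0.83 (adjusted p = 0.042) and 5.30 (adjusted p = 0.000412) without both replicates 2, but the adjusted p was 0.055 without M1M2 replicate 2, 0.0838 without M1M2 replicate 3, 0.177 without M1 replicate 1 and 0.246 without M1 replicate 3. Among 8 cyclins and division kinases 1 rose, CKS1 (YBR135W), a subunit of the Cdc28 kinase, with 109.5, 3937 and 169 CPM in M1M2, against 34.2, 40.7 and 39.6 CPM in M1. Its change was 5.14 ± 1.22 (adjusted p = 0.00926), and 1.89 (adjusted p = 0.794) without both replicates 2, with an adjusted p of 0.6 without M1M2 replicate 2, 0.0621 without M1 replicate 1 and 0.0671 without M1 replicate 3. The cyclin genes of the divisions did not pass. CLB1 (YGR108W) had 37.4, 723 and 61.9 CPM in M1M2, against 258, 224 and 226 CPM in M1, with a change of -0.47 ± 0.98 (adjusted p = 0.925). CLB3 (YDL155W) had 211, 562 and 352 CPM in M1M2, against 152, 428 and 261 CPM in M1, with a change of 0.33 ± 0.67 (adjusted p = 0.92).

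None of the 7 tested genes of meiosis I chromosome segregation passed with all libraries. SPO13 (YHR014W, chrVIII:132047-132922), which keeps sister chromatids together in meiosis I, had 446, 321 and 439.9 CPM in M1M2, against 1.45, 194 and 4.40 CPM in M1. The deep libraries were far apart, and the shallow M1 library held 19 counts, more than the 7 in each of the deep ones. Its change was 2.97 ± 1.05 (adjusted p = 0.127) with all libraries and 7.30 (adjusted p = 0.000285) without both replicates 2, and the adjusted p was 0.00021 without M1 replicate 2. MAM1 (YER106W), a subunit of monopolin, changed by 1.90 ± 1.32 (adjusted p = 0.566), or by 4.82 (adjusted p = 0.0532) without both replicates 2, and its adjusted p was 0.0299 without M1 replicate 2. Of 38 DNA replication genes and 4 core histone genes none passed, with medians of 0.55 and 0.92, or 0.77 and 0.50 without both replicates 2. Of 36 spindle and kinetochore genes 1 rose, MPS3, against 2% of all tested genes, and 0 rose without both replicates 2. The median of the list was 0.89.

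Genes of nitrogen use included 3 rises among 24 tested members and no fall, with a median of 0.31 that became 1.37 without both replicates 2. The 3 genes passed in either case. CAR1 (YPL111W, chrXVI:339944-340945), arginase, had 1819, 1527 and 3129.6 CPM in M1M2, against 168, 163 and 49.6 CPM in M1. The groups did not overlap, with a change of 4.13 ± 0.68 (adjusted p = 0.000137; 4.47 without both replicates 2). URS1 was first described as a repressing element at this gene. MEP2 (YNL142W, chrXIV:357453-358952), an ammonium transporter, had 707, 482 and 301 CPM in M1M2, against 29.6, 30.6 and 5.02 CPM in M1. The change was 4.63 ± 1.00 (adjusted p = 0.00365; 4.81 without both replicates 2), with an adjusted p of 0.0638 without M1 replicate 3. DAL80 (YKR034W, chrXI:506898-507707), a GATA factor that represses nitrogen genes, had 215, 0 and 157 CPM in M1M2, against 1.45, 10.2 and 2.51 CPM in M1. Its change was 5.77 ± 1.46 (adjusted p = 0.0163; 6.55 without both replicates 2), with an adjusted p of 0.119 without M1 replicate 1 and 0.123 without M1 replicate 3. The letters GATAAG, the core that GATA factors bind, were in 13 of the 24 promoters of the list (54.2%), against 12.5% of the promoters of all tested genes.

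ATG1 (YGL180W, chrVII:160065-162758), the kinase that starts autophagy, was the 1 of 19 autophagy genes to rise. It had 645, 482 and 2084 CPM in M1M2, against 107, 387 and 135 CPM in M1, and changed by 2.45 ± 0.72 (adjusted p = 0.0495) and by 3.46 (adjusted p = 0.0132) without both replicates 2. The adjusted p was 0.445 without M1M2 replicate 3, 0.188 without M1 replicate 1 and 0.234 without M1 replicate 3. The median of the list was 0.72. Of 9 genes of the proteasome core 1 rose, PRE9 (YGR135W), and of 25 translation factors 1, the RNA helicase gene DED1 (YOR204W). Their changes were 2.60 ± 0.74 and 2.81 ± 0.82 with all libraries (adjusted p = 0.0425 and 0.0495), and 0.60 and 1.46 without both replicates 2 (adjusted p = 0.987 and 0.68). PRE9 had 690.0, 8356 and 653 CPM in M1M2, against 534, 672 and 339 CPM in M1, and its adjusted p was 0.928 without M1M2 replicate 2, 0.11 without M1 replicate 1, 0.0613 without M1 replicate 2 and 0.203 without M1 replicate 3. DED1 had 394, 2330.1 and 568 CPM in M1M2, against 219, 81.5 and 125 CPM in M1, and its adjusted p was 0.427 without M1M2 replicate 2, 0.0757 without M1 replicate 1, 0.15 without M1 replicate 2 and 0.187 without M1 replicate 3. The shallow M1M2 library was the highest of the 6 for PRE9 and for DED1.

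Other rises by the rule for named genes lay outside the lists. YKL107W (chrXI:236141-237070) had 403, 10043 and 509 CPM in M1M2, against 29.0, 112 and 70.3 CPM in M1, and a change of 5.74 ± 0.94 (adjusted p = 0.000137), or 3.18 without both replicates 2. YOL131W (chrXV:73031-73357) had 480, 2 and 454 counts in M1M2, against 6, 0 and 2 counts in M1, and a change of 7.44 ± 1.70 (adjusted p = 0.00693), with an adjusted p of 0.0588 without M1 replicate 1 and 0.0638 without M1 replicate 3. PMA2 (YPL036W), a proton pump of the plasma membrane, had 411, 80.3 and 921 CPM in M1M2, against 4.56, 50.9 and 5.02 CPM in M1. The groups did not overlap, but the shallow M1M2 value stands on 1 count, under the floor of 3 counts, against 5 counts in the shallow M1 library. The change was 5.16 ± 1.42 (adjusted p = 0.0331), and 7.08 (adjusted p = 0.0146) without both replicates 2. Its adjusted p was 0.121 without M1M2 replicate 3, 0.156 without M1 replicate 1 and 0.201 without M1 replicate 3. YER152W-A, which the annotation does not hold, and SMM1, which makes dihydrouridine in tRNA, had their highest values in the shallow M1M2 library. Their changes were 7.05 ± 1.61 and 5.82 ± 1.37 with all libraries, and 2.21 and 1.37 without both replicates 2 (adjusted p = 0.891 and 0.951). PHM7, ARO9, an aromatic aminotransferase, and ULP2, a SUMO protease, changed by 3.71 ± 0.68, 3.35 ± 0.65 and 3.40 ± 0.69 (adjusted p = 0.000672, 0.00118 and 0.00173). Without both replicates 2 their adjusted p was 0.0767, 0.0427 and 0.00682. For YER152W-A the adjusted p was 0.634 without M1M2 replicate 2 and 0.0638 without M1 replicate 3, and for SMM1 0.826 without M1M2 replicate 2, 0.0571 without M1 replicate 1 and 0.076 without M1 replicate 3.

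The 10 lower genes included parts of respiration and of sulfur amino acid supply, and their libraries did not overlap. Of 13 respiratory chain genes 2 fell, 9 changes were negative, and the median was -1.45. CYC1 (YJR048W, chrX:526335-526664), cytochrome c, had 299.8, 723 and 4.71 CPM in M1M2, against 2831, 4889 and 3192 CPM in M1. The M1M2 libraries differed widely among themselves, with 7 counts in replicate 3, and all lay below M1. The change was -3.71 ± 0.96 (adjusted p = 0.0194; -4.30, adjusted p = 0.0303, without both replicates 2), with an adjusted p of 0.0571 without M1M2 replicate 1, 0.0872 without M1M2 replicate 3 and 0.0571 without M1 replicate 3. NDE2 (YDL085W), an NADH dehydrogenase on the outer face of the inner mitochondrial membrane, had 1139.8, 1446 and 1172 CPM in M1M2, against 2519, 9014 and 2649 CPM in M1. Its change was -1.93 ± 0.53 (adjusted p = 0.0325), and -1.18 (adjusted p = 0.425) without both replicates 2, with an adjusted p of 0.0811 without M1M2 replicate 1, 0.0696 without M1M2 replicate 2, 0.109 without M1M2 replicate 3 and 0.35 without M1 replicate 2.

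Of 15 genes of gluconeogenesis and acetate use 1 fell, SFC1 (YJR095W), a mitochondrial carrier of succinate and fumarate, and the median was -1.21. SFC1 had 1275, 723 and 1111 CPM in M1M2, against 6707, 6131 and 5726 CPM in M1, and a change of -2.55 ± 0.66 (adjusted p = 0.0194). The groups did not overlap, and without both replicates 2 the change was -2.40 (adjusted p = 0.121), with an adjusted p of 0.103 without M1M2 replicate 2, 0.0567 without M1M2 replicate 3, 0.0571 without M1 replicate 1 and 0.0571 without M1 replicate 3. No TCA cycle gene (10 tested) and no ATP synthase gene (10 tested) passed. All 10 TCA cycle changes and 9 of the 10 ATP synthase changes were negative, with medians of -0.56 and -1.58, or -0.98 and -1.33 without both replicates 2.

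Of 19 sulfate assimilation genes 2 fell, and the median was -0.96. CYS3 (YAL012W, chrI:130799-131983), which makes cysteine from cystathionine, had 157, 643 and 86.8 CPM in M1M2, against 766, 3544 and 1807 CPM in M1. Its change was -3.15 ± 0.89 (adjusted p = 0.0408; -3.42, adjusted p = 0.0481, without both replicates 2), with an adjusted p of 0.122 without M1M2 replicate 1, 0.2 without M1M2 replicate 3, 0.152 without M1 replicate 2 and 0.078 without M1 replicate 3. MUP1 (YGR055W, chrVII:599417-601141), a methionine transporter, had 169, 723 and 189 CPM in M1M2, against 1927, 2760.2 and 1615 CPM in M1. Its change was -2.80 ± 0.81 (adjusted p = 0.0452; -3.33, adjusted p = 0.0359, without both replicates 2), with an adjusted p of 0.141 without M1M2 replicate 1, 0.181 without M1M2 replicate 3, 0.0733 without M1 replicate 1, 0.09 without M1 replicate 2 and 0.0753 without M1 replicate 3. CYC1, CYS3 and MUP1 were the 3 lower genes past the threshold with and without both replicates 2.

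FRE7 (YOL152W, chrXV:40748-42610), a copper-regulated reductase of the cell surface, had 61.2, 80.3 and 6.73 CPM in M1M2, against 1691, 1059 and 2622 CPM in M1. Its change was -5.53 ± 1.5 (adjusted p = 0.0312) and -5.98 (adjusted p = 0.077) without both replicates 2, with an adjusted p of 0.0505 without M1M2 replicate 1, 0.0696 without M1M2 replicate 2, 0.152 without M1M2 replicate 3, 0.0621 without M1 replicate 1 and 0.12 without M1 replicate 3. The other 4 lower genes were SIP2, a subunit of the Snf1 kinase, PRY2, a sterol-binding secreted protein, and MRPL33 and TUF1, of mitochondrial translation. They changed by -3.25 ± 0.83, -3.87 ± 1.11, -4.44 ± 1.29 and -2.21 ± 0.65 (adjusted p = 0.0172, 0.0452, 0.049 and 0.0495). Without both replicates 2 their adjusted p was 0.462, 0.112, 0.457 and 0.334. With a library left out, the adjusted p of SIP2 was 0.0696 without M1M2 replicate 2, 0.117 without M1M2 replicate 3 and 0.291 without M1 replicate 2. That of PRY2 was 0.132 without M1M2 replicate 1, 0.0774 without M1M2 replicate 2, 0.167 without M1M2 replicate 3, 0.0561 without M1 replicate 1, 0.0699 without M1 replicate 2 and 0.133 without M1 replicate 3. That of MRPL33 was 0.147 without M1M2 replicate 2, 0.276 without M1M2 replicate 3, 0.0571 without M1 replicate 1, 0.241 without M1 replicate 2 and 0.0638 without M1 replicate 3, and that of TUF1 0.135 without M1M2 replicate 1, 0.204 without M1M2 replicate 2, 0.0813 without M1 replicate 1, 0.108 without M1 replicate 2 and 0.087 without M1 replicate 3.

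No ribosomal protein gene was called. Of 40 genes of the large subunit 36 changes were negative, with a median of -1.04, or -1.82 without both replicates 2. Of 29 genes of the small subunit 25 were negative, with a median of -1.05, or -1.79. RPL21A (YBR191W), a gene with a near-identical paralogue, had 66.2, 161 and 35 CPM in M1M2, against 341, 845 and 546 CPM in M1, and a change of -3.16 ± 1.04 (adjusted p = 0.0931). The summed CPM of the large subunit list was 8043, 27318 and 4315 in M1M2, against 19908, 14972 and 21076 in M1. After TMM scaling the shallow M1M2 library thus held the highest sum and the deep M1M2 ones the lowest. The order rests on the scaling too, since the factor of the shallow M1M2 library was 0.531. None of 79 ribosome biogenesis genes passed, and their median was 0.07, or 0.12 without both replicates 2. No gene passed in the lists of glycolysis (13 tested), hexose transport (14), peroxisomal fatty acid oxidation (22), vacuolar hydrolases (8), the proteasome regulatory particle (13) and tRNA synthetases (10). Of 22 stress and reserve carbohydrate genes none passed, and their median was -0.40, or 0.15 without both replicates 2, where 12 of the 22 changes were positive in place of 7. HSP12 (YFL014W), a membrane-protecting stress protein, had 3031, 17516 and 6638 CPM in M1M2, against 1419.5, 35607 and 1515 CPM in M1, with a change of -0.51 ± 0.69 (adjusted p = 0.838). The sign turned without M1 replicate 2, to 2.61 (adjusted p = 0.0209), and was positive without both replicates 2 (1.69, adjusted p = 0.3).

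**Figure D4:**
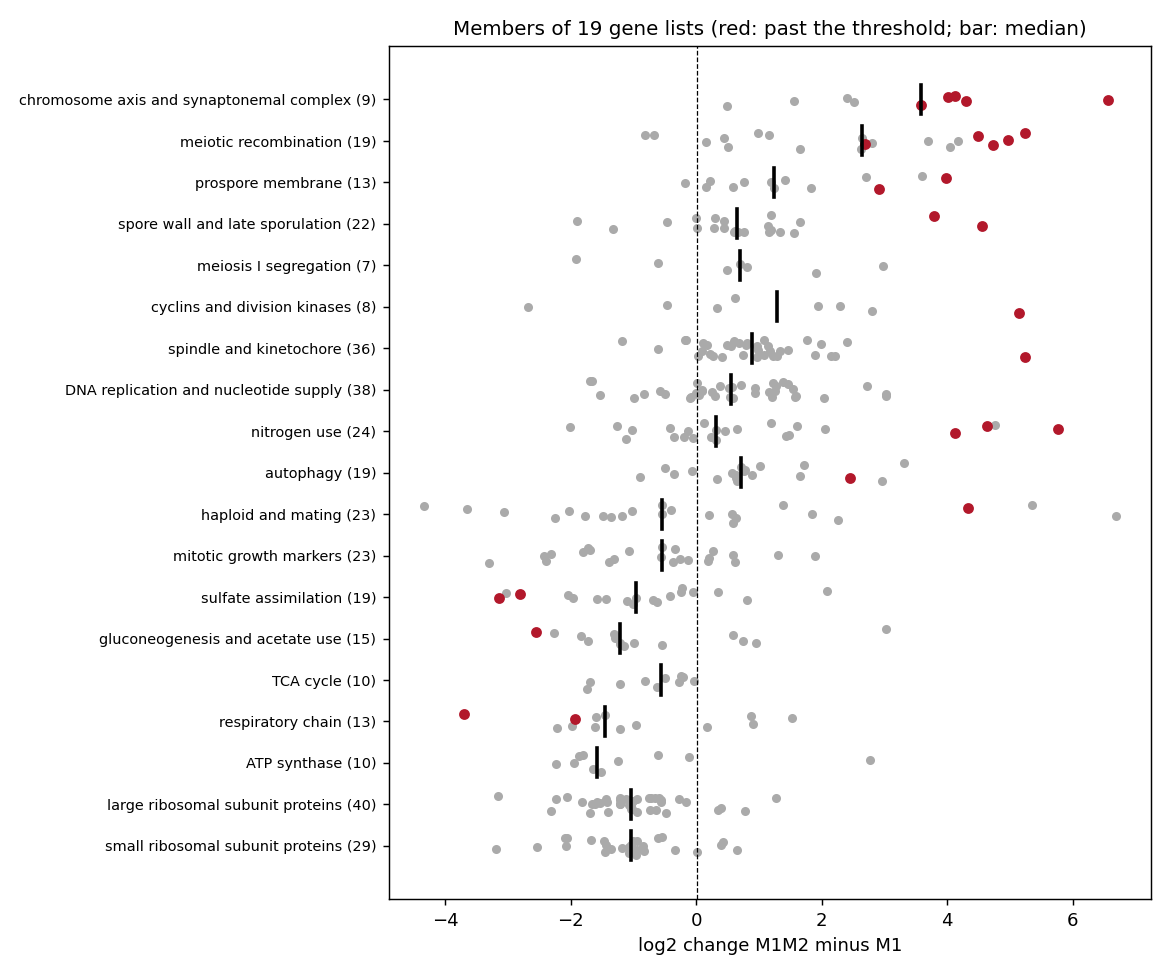
Log2 change (M1M2 minus M1) of each tested member of 19 gene lists, with the number of members in brackets. Red points passed the threshold, grey ones did not, and the bar is the list's median. Axis and recombination genes lie furthest to the right, with medians of 3.57 and 2.64, and ATP synthase genes furthest to the left, with a median of -1.58. Without both replicates 2 the medians of large and small subunit proteins (-1.82 and -1.79) were below that of ATP synthase (-1.33).

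Markers of cells outside meiosis were summed to see whether they moved with the stages. The 23 genes of mitotic growth summed to 3094, 2009 and 2177 CPM in M1M2, against 3856, 4716 and 4102 CPM in M1. None passed, and 16 of 23 changes were negative. The 23 haploid and mating genes summed to 2070, 3696 and 2680 CPM in M1M2, against 1567, 3697 and 2116 CPM in M1. Of their changes 13 were negative and 10 positive, and the median was -0.54, or 0.08 without both replicates 2. The a-factor gene MFA2 had no count in the M1M2 libraries and 1 count in all of M1, and BAR1, a protease of a cells, had 16, 0 and 10 counts in M1M2, against 0 in all M1 libraries. STE4 (YOR212W), a G protein subunit of mating, was the 1 haploid gene called, at 4.34 ± 1.24 (adjusted p = 0.0452), and at 0.08 (adjusted p = 1) without both replicates 2. Its adjusted p was 0.991 without M1M2 replicate 2, 0.106 without M1 replicate 1, 0.122 without M1 replicate 2 and 0.159 without M1 replicate 3. The 9 axis genes summed to 7092, 15266 and 14966 CPM in M1M2, against 702, 968 and 642 CPM in M1. The part of cells outside meiosis in the results was not tested.

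The same step was made by S. paradoxus (3 libraries per stage) and by the hybrid (4 per stage), and the differences between steps were tested as interactions in the same fit. In S. paradoxus 57 genes were called in the step (1.84%), 37 higher (1.2%) and 20 lower (0.646%), and in the hybrid 229 (7.4%), 138 higher (4.46%) and 91 lower (2.94%). The step of S. cerevisiae differed from that of S. paradoxus for 15 genes (0.485%), 12 with a more positive change in S. cerevisiae (0.388%) and 3 with a more negative one (0.097%). It differed from that of the hybrid for 79 genes (2.55%), 38 with a more positive change (1.23%) and 41 with a more negative one (1.33%). Both comparisons share the S. cerevisiae libraries. Without both S. cerevisiae replicates 2 the counts were 15 and 59, and 8 and 44 of the genes were in both sets.

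MEP2 ran in opposite directions. Its change was 4.63 ± 1.00 in S. cerevisiae, against -3.79 ± 0.91 in S. paradoxus (adjusted p = 0.0112) and -4.34 ± 0.81 in the hybrid (adjusted p = 7.01e-05). The S. paradoxus libraries averaged 109.6 ± 119 CPM at M1M2 and 1525 ± 1182 CPM at M1 (SD, n = 3 each), and the hybrid ones 131 ± 107 CPM at M1M2 and 2651 ± 862 CPM at M1 (SD, n = 4 each). The difference between steps was 8.42 ± 1.35 against S. paradoxus (adjusted p = 0.000122) and 8.97 ± 1.3 against the hybrid (adjusted p = 5.19e-06). PHM7 (YOL084W) showed the same signs, with changes of 3.71 ± 0.68 in S. cerevisiae, -1.86 ± 0.61 in S. paradoxus, which did not pass (adjusted p = 0.133), and -2.60 ± 0.55 in the hybrid (adjusted p = 0.000491). Its differences of 5.56 ± 0.91 and 6.31 ± 0.87 passed (adjusted p = 0.000122 and 2.97e-06). CAR1 rose in S. cerevisiae, while its change was 0.37 ± 0.59 in S. paradoxus and -0.28 ± 0.51 in the hybrid, with differences of 3.75 ± 0.87 and 4.41 ± 0.83 (adjusted p = 0.0254 and 0.000557).

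Among genes of the axis and of recombination few differences passed. HOP1 changed by 4.30 ± 0.83 in S. cerevisiae, 1.33 ± 0.73 in S. paradoxus and 1.18 ± 0.63 in the hybrid. Its difference of 3.13 ± 0.99 against the hybrid did not pass (adjusted p = 0.0761), but it was 3.84 and passed without both replicates 2 (adjusted p = 0.0303). HOP2 likewise differed from the hybrid past the threshold only without both replicates 2 (6.42, adjusted p = 0.026). MPS3 did so only with all libraries (1.16, adjusted p = 0.965, without both replicates 2). DMC1 differed from the hybrid by 3.55 ± 0.98 (adjusted p = 0.0285), with a change of 0.94 ± 0.62 in the hybrid. SMC1 differed from S. paradoxus by 4.14 ± 0.98 (adjusted p = 0.0267) and from the hybrid by 3.55 ± 0.91 (adjusted p = 0.0167), but neither passed without both replicates 2 (adjusted p = 0.195 and 0.149).

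Many genes of spore formation changed less in S. cerevisiae than in the hybrid. Of 22 spore wall genes 12 had a lower change in S. cerevisiae past the threshold and none a higher one, and of 13 prospore membrane genes 5 had a lower one, against a background of 1.33%. Without both replicates 2 these counts were 10 and 5. Against S. paradoxus, 2 of the 22 spore wall genes and 0 of the 13 prospore membrane genes differed in either direction with all libraries, against a background of 0.485%. NDT80 changed by 2.3 ± 0.72 in S. cerevisiae, against 4.76 ± 0.75 in S. paradoxus and 5.70 ± 0.68 in the hybrid. The difference from the hybrid was -3.40 ± 0.91 (adjusted p = 0.0232), and that from S. paradoxus, -2.46 ± 0.96, did not pass (adjusted p = 0.327). GAS4 changed by 1.19 ± 0.77 in S. cerevisiae, against 4.47 ± 0.79 in S. paradoxus and 6.28 ± 0.74 in the hybrid, and differed from the hybrid by -5.09 ± 1.02 (adjusted p = 0.00119). The hybrid libraries averaged 3711 ± 1493 CPM of GAS4 at M1M2 and 47.8 ± 9.10 CPM at M1 (SD, n = 4 each), against 248 ± 157 and 105 ± 106 CPM in S. cerevisiae (SD, n = 3 each). Stages were named per genotype by the submitters, and the timing of the samples in each was not compared.

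**Figure D5:**
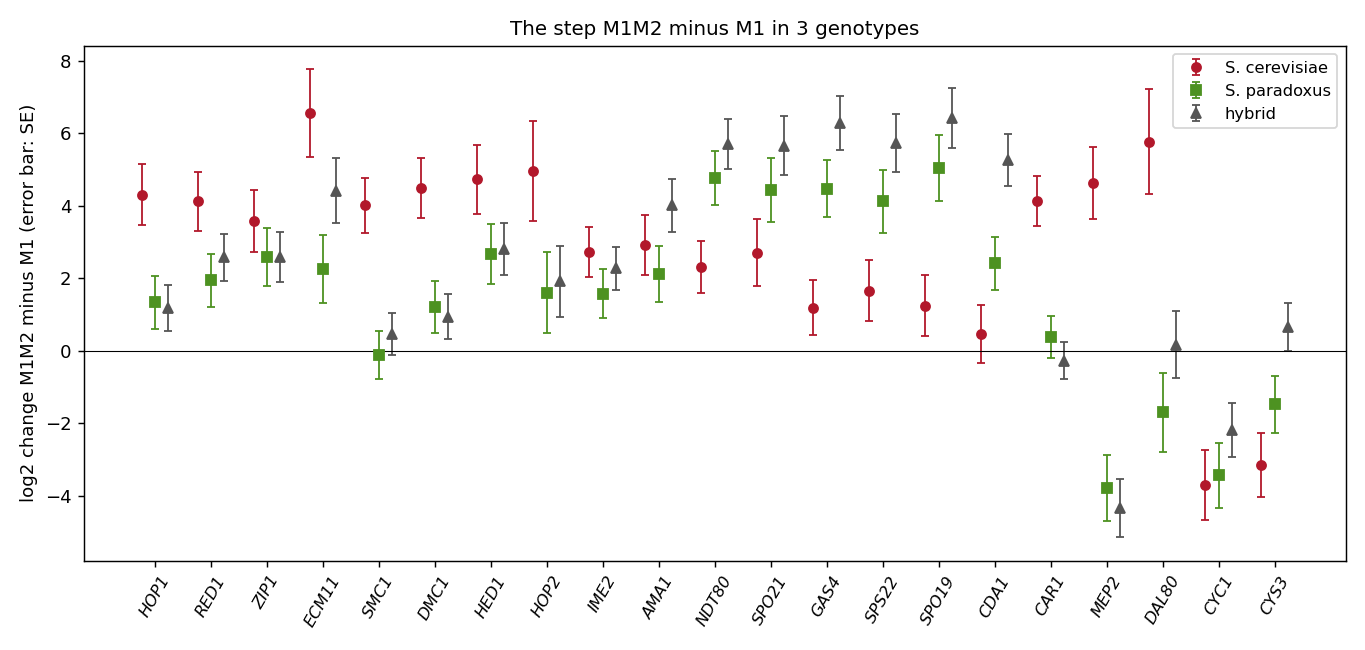
Log2 change (M1M2 minus M1) of 21 genes in S. cerevisiae (red circles), S. paradoxus (green squares) and the hybrid (grey triangles), with bars for the SE. MEP2 lies above 0 in S. cerevisiae and below 0 in the others, and NDT80, GAS4, SPS22, SPO19 and CDA1 lie lowest in S. cerevisiae.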

How the data were processed

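Per the labels' protocols, poly-A RNA was purified, reverse transcribed with poly-A primers and sequenced on a HiSeq. The submitters' processing notes name the aligner Bowtie (version 0.12.7) and the R package DESeq (1.8.3). How reads were counted, with or without strand, and the genome build are not given in the sources used here. The authors deposited raw counts per feature, and these were the values used. The deposited table of alleles and the deposited transformed values were not used here. Rows that name no gene (246, 0.881 to 2.96% of the counts of the 6 libraries) were left out. Names ending in W belong to 3058 of the open reading frames and names ending in C to 4, so genes of the other strand were not analysed here. R64 annotation matched 2772 genes by name.

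Counts were fitted with edgeR 4.0.16 in R 4.3.3 by the quasi-likelihood F test, after TMM scaling and the filterByExpr filter. A single model held all 12 groups and 40 libraries, which share the spread, with a common coefficient of variation of 0.871. Adjustment was Benjamini-Hochberg within each contrast, at 0.05. Alternatives were DESeq2 1.42.0, its size factors, no filter, the rows that name no gene kept, only 6 or 12 libraries, a replicate block and leaving out libraries. Genes were named by a rule: 14 genes always, up to 4 called members of each of 32 lists (or 2 others) and up to 12 rises and 12 falls without overlap, with a mean count of at least 20. The members and lists were chosen with earlier results of these data known.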

Additional observations from a re-analysis of the deposited data

Results flagged for a closer look

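Some results differed between genotypes, by the test of the difference between the step M1M2 minus M1 in S. cerevisiae and the same step in S. paradoxus or the hybrid. Each is a difference of log2 changes, S. cerevisiae minus the other, with edgeR's adjusted p, followed by the difference without both S. cerevisiae replicates 2. SPO19, GAS4 and SPS22, of the middle and late sporulation genes, and PHM7 were picked after their values were seen.

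Against S. paradoxus, MEP2 differed by 8.42 (adjusted p = 0.000122; 8.58 without both replicates 2), PHM7 by 5.56 (0.000122; 4.08), CAR1 by 3.75 (0.0254; 4.07) and DAL80 by 7.47 (0.0331; 8.22). These 4 also passed without both replicates 2. SMC1 differed by 4.14 (0.0267; 3.30), YKL107W by 5.45 (0.0104; 2.87) and YER152W-A by 8.40 (0.0267; 3.55), and these did not pass without both replicates 2 (adjusted p = 0.195, 0.324 and 0.975).

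Against the hybrid, MEP2 differed by 8.97 (adjusted p = 5.19e-06; 9.21 without both replicates 2), PHM7 by 6.31 (2.97e-06; 4.92), CAR1 by 4.41 (0.000557; 4.80), DMC1 by 3.55 (0.0285; 3.45) and CYS3 by -3.79 (0.0404; -4.0). NDT80 differed by -3.40 (0.0232; -4.51), CDA1 by -4.81 (0.00271; -5.55), SPO19 by -5.18 (0.00261; -5.07), GAS4 by -5.09 (0.00119; -4.31) and SPS22 by -4.08 (0.0223; -4.11). All 10 also passed without both replicates 2. SMC1 differed by 3.55 (0.0167; 2.81), MPS3 by 5.11 (0.0491; 1.16), YKL107W by 5.80 (0.000557; 3.30), YER152W-A by 8.21 (0.00487; 3.45) and SMM1 by 5.87 (0.0251; 1.5). These 5 did not pass without both replicates 2.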

How the results depend on the processing

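The 72 calls (62 higher, 10 lower) became 196 (130 and 66) with DESeq2, 26 (21 and 5) with only the 6 libraries, 22 (19 and 3) with only the 12 S. cerevisiae libraries, and 42 (39 and 3) without both replicates 2. With size factors there were 67 (53 and 14), without a filter 68, and with the rows that name no gene 62. Of the calls 86.1% were higher, against 66.3% with DESeq2. Leaving out 1 library gave 18 to 102 calls, 15 to 92 higher and 1 to 10 lower. The count was 18 without M1 replicate 3, 34 without M1M2 replicate 2 and 35 without M1 replicate 1. The 15 differences from S. paradoxus became 5 with size factors, 50 with DESeq2 and 8 to 27 with 1 library left out, and the 79 from the hybrid became 145 with DESeq2. With a replicate block there were 36 calls (33 and 3). Libraries of the same number were not treated as paired in the main fit. The correlations of their deviations were 0.199, 0.208 and 0.027 for replicates 1, 2 and 3. For libraries of different number they ran from -0.239 to 0.158. These values do not settle whether the libraries were paired. With 1 library left out, changes that turned sign ran from -2.28 to 0.36 for CLB1 (0.10 without M1M2 replicate 3), -0.47 to 1.19 for CDA1 (-0.37 without both replicates 2), -1.76 to 1.63 for DIT1, -1.22 to 2.61 for HSP12 (0.11 with the replicate block, 1.69 without both replicates 2), -0.84 to 3.56 for SPO19 and -0.48 to 3.85 for SPS22. The causes were not tested. Over the genes named here, 553 values kept their direction and side of the threshold in an alternative, 197 were no longer past it, 20 were newly past it and 13 changed sign. In M1M2 replicate 2 a gene with 3 counts stands at 241 CPM, so levels below that are not resolved there.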
